A study of Mus musculus with 8 samples.

Results

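The genes described here encode the tricarboxylic acid (TCA) cycle and the pyruvate dehydrogenase complex that feeds it. They also encode the kinases and phosphatase that set the complex's activity, and the aspartate transaminases of the malate-aspartate shuttle. They further encode carriers that move pyruvate, citrate, malate and other dicarboxylates across the inner mitochondrial membrane. They come from a list of 32 symbols, and a gene was taken as measured where the platform annotation gave at least 1 probe set (a group of short probes read out together) that single gene name. On that rule 31 of the 32 were measured, through 68 of the 34945 single-gene probe sets, out of 18193 genes in all. The remaining one, Mpc2, had no probe set under that rule and is not analysed here. Each gene is represented by the probe set with the highest mean over all arrays. Pyruvate carboxylase is not among the genes.

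Expression was measured on 3' expression arrays in inguinal white fat (iWAT), which lies under the skin at the groin. The mice were male littermates on a C57BL/6 background, aged 12 weeks and fed standard chow. The comparison is between 4 mice deficient in lysophosphatidic acid receptor 4 (Lpar4 -/Y, called KO) and 4 wild-type mice (WT), with 1 array a mouse. Lpar4, a gene of the X chromosome, encodes a receptor that signals through G proteins when it binds the lipid mediator lysophosphatidic acid. How the allele was made is not stated in the labels. The question the comparison addresses is which genes of this depot differ when the receptor is missing. All values are log2 signals and all differences are KO minus WT.

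The TCA cycle oxidises acetyl groups to carbon dioxide in the mitochondrial matrix and hands the electrons to the respiratory chain. In white fat its intermediates also leave the mitochondrion. Citrate is exported as the source of cytosolic acetyl-CoA for fatty acid synthesis, and malate and isocitrate carry reducing power between the compartments. Pyruvate dehydrogenase, which makes acetyl-CoA from pyruvate, is switched off by phosphorylation by the Pdk kinases and switched on again by the Pdp phosphatases.

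Some facts of the whole series bear on every value below. Of the 45101 probe sets, 78.7% had a standard deviation (SD) under 0.01 over the 8 arrays; genes whose probe set did so are called near constant, and the other 5173 genes are called varying. Array medians lay between 6.73 and 6.74. The 3 probe sets of Lpar4 did not move together: one was 5.74 to 5.91 in KO and 6.80 to 7.04 in WT (limma adjusted p = 0.00911 over single-gene probe sets), whereas the others were higher in KO without overlap, by 0.71 and 0.53, and did not pass (0.134 and 0.119). Where these probe sets lie relative to the deleted part is not known here. The 18S ribosomal RNA controls read 0.22 to 0.44 higher in KO, and their part in the results was not tested. In whole tissue, fewer cells of a type and less RNA per cell cannot be told apart.

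Most of the varying cycle and shuttle genes were higher in KO, and the largest negative difference, that of the kinase gene Pdk4, did not pass the test. In limma over all genes (Benjamini-Hochberg adjusted p under 0.05), 6 of the 31 measured genes rose and 0 fell, where 2.39% of all genes rose and 1.64% fell. The 6 were Mdh1, Fh1, Mdh2, Dlat, Dld and Idh3a. Among the varying genes, which include 25 of the 31, 15 rose and 0 fell, against 14.9% and 12.2% of all varying genes. With the replicate number as a block (each KO array set against the WT array of the same number) 12 of the 25 rose and 0 fell among varying genes, against 10.3% and 9.24%. The KO arrays all lay above the WT arrays in 15 of the 25 and all below in 0, against 18.2% and 15.0% of varying genes. The difference was above 0 in 22 of the 25 and below 0 in 3, against 52.3% and 47.7% of varying genes. The median difference was 0.21 over the 31 genes (0.27 over the 25 varying ones), beside 2.86e-05 over all genes and 0.01 over all varying genes. The mean of the 31 genes was 9.95, 9.86, 9.94 and 9.88 in KO arrays 1 to 4 and 9.78, 9.70, 9.71 and 9.76 in WT arrays 1 to 4.

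The calls over all genes did not hold with the replicate block, where 0 of the 18193 genes passed in limma although 3703 genes, 20 of the 31 among them, had an unadjusted p under 0.05. The smallest adjusted p among the 31 genes was then 0.0619. Leaving out any single array other than KO 3 left 3 of the 6 calls over all genes (Fh1, Mdh1 and Mdh2), and leaving out KO 3 left 0. Calls were lost over the whole series too. Of the 18193 genes 733 passed with all arrays, 131 to 253 without 1 array other than KO 3, and 10 without KO 3. Among varying genes the 15 calls became 7 without KO 1, 6 without KO 3, 8 without WT 2, 9 without WT 3, and 10 to 13 without each of the other arrays. The share of all varying genes that passed without 1 array was not counted.

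**Figure D1:**
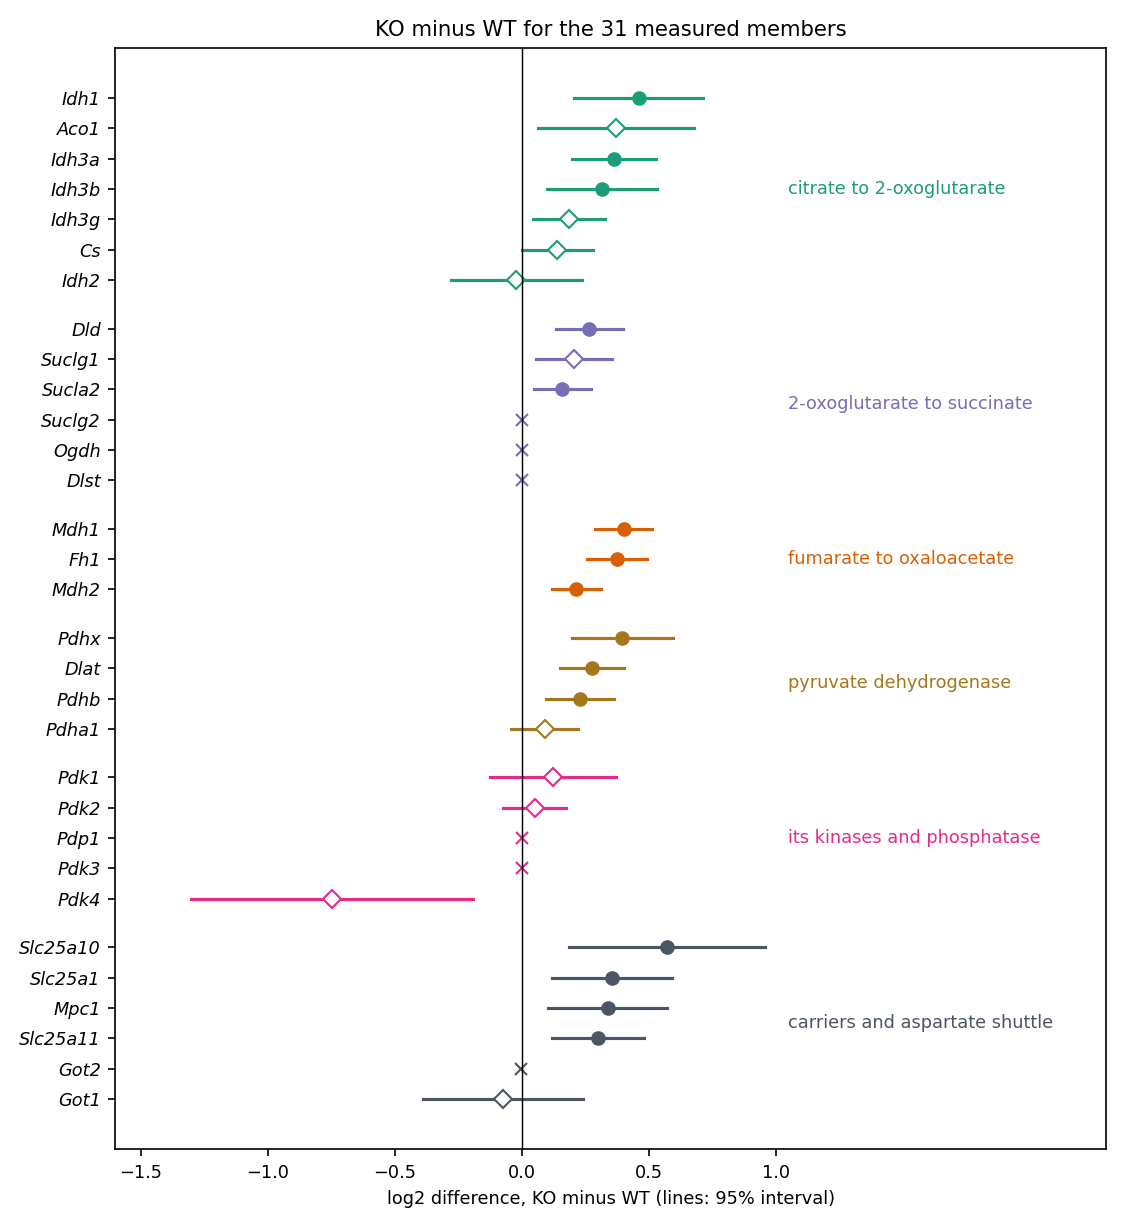
The log2 difference, KO minus WT, of each of the 31 measured genes (horizontal axis), grouped by role, with 95% intervals from limma among varying genes. Filled circles passed there, open diamonds did not, and crosses are near-constant genes, which have no interval; all 15 filled circles lie to the right of 0 and Pdk4 lies farthest to the left at -0.75.

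The steps from citrate to 2-oxoglutarate were represented by 7 genes, all varying, of which Idh3a rose over all genes and Idh1, Idh3a and Idh3b rose among varying genes. Idh3a encodes the catalytic subunit of the NAD-dependent isocitrate dehydrogenase of the matrix. Its signal was 11.39, 11.18, 11.38 and 11.17 in the KO arrays and 11.00, 10.90, 10.95 and 10.82 in the WT arrays. Every KO array lay above every WT array, and the difference was 0.36 ± 0.07 (SE, n = 4 against 4), or 1.29-fold (limma adjusted p = 0.0471 over all genes and 0.0806 there with the replicate block; 0.0137 and 0.0242 among varying genes). Its call over all genes was lost without any one array (0.0666 to 0.123), and its call among varying genes was lost when probe sets with the suffix _s_at, _x_at or _a_at were left out (0.0593). The regulatory subunit gene Idh3b was 11.28, 10.97, 11.19 and 11.27 in KO and 10.92, 10.66, 10.88 and 10.99 in WT. Its groups overlapped, since KO 2 lay just below WT 4, and the difference of 0.32 passed among varying genes (adjusted p = 0.0412, and 0.0246 with the block) but not over all genes (0.125). The third subunit gene, Idh3g, differed by 0.19 and missed the threshold in each of these fits (0.118 over all genes; 0.0547 among varying genes, and 0.0513 with the block; 95% interval 0.05 to 0.33).

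Isocitrate is also oxidised by NADP-dependent enzymes, of which Idh1 works in the cytosol and peroxisomes and Idh2 in the matrix. Idh1 was 10.66, 10.43, 10.54 and 10.33 in KO and 10.19, 10.12, 9.75 and 10.06 in WT. All KO arrays lay above all WT arrays, WT 3 was the lowest, and the difference of 0.46 ± 0.12 (SE, 1.38-fold) passed among varying genes (adjusted p = 0.0224, and 0.0405 with the block) but not over all genes (0.0837). Idh2 was 9.68, 9.68, 9.90 and 9.40 in KO and 9.81, 9.78, 9.63 and 9.53 in WT. Its groups overlapped, with a difference of -0.02 and an interval of -0.28 to 0.24, and its sign turned when KO 4, WT 1 or WT 2 was left out. Whether the changes of Idh1 and Idh2 differed from each other was not tested.

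Aco1 encodes the cytosolic aconitase, which doubles as an iron-regulatory RNA-binding protein. It was 11.39, 10.93, 11.08 and 10.84 in KO and 10.79, 10.70, 10.43 and 10.82 in WT. The groups did not overlap, but KO 4 and WT 4 were close, and the difference of 0.37 did not pass (adjusted p = 0.0701 among varying genes). Citrate synthase, Cs, which makes the first intermediate of the cycle, differed by 0.14 and did not pass on its brightest probe set (0.117 among varying genes, interval -0.000950 to 0.28).

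From 2-oxoglutarate to succinate the 6 genes comprised 3 that varied and 3 that did not. Dld encodes the dihydrolipoamide dehydrogenase that serves both the 2-oxoglutarate and the pyruvate dehydrogenase complexes. Its signal was 10.14, 10.12, 10.29 and 10.20 in KO and 9.92, 9.82, 9.99 and 9.96 in WT. The groups did not overlap, and the difference of 0.27 ± 0.05 (SE, 1.20-fold) passed over all genes (adjusted p = 0.0454) and among varying genes (0.0170, and 0.0307 with the block), but not over all genes with the block (0.0729) or without any one array (0.0726 to 0.102). Ogdh and Dlst, which encode the other components of the 2-oxoglutarate dehydrogenase complex, were near constant at 9.24 and 9.81 in every array.

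Succinyl-CoA ligase pairs the alpha subunit Suclg1 with an ADP-specific beta subunit, Sucla2, or a GDP-specific one, Suclg2. Sucla2 was 10.83, 10.72, 10.78 and 10.81 in KO and 10.63, 10.54, 10.66 and 10.67 in WT, groups that did not overlap. Its difference of 0.16 passed among varying genes (adjusted p = 0.0453) but not there with the block (0.0620), over all genes (0.0708) or among varying genes without any one array (0.0509 to 0.104), nor when its probe sets were averaged (0.0963). Suclg1 was 10.44, 10.25, 10.38 and 10.28 in KO and 10.20, 10.10, 10.01 and 10.22 in WT. These groups did not overlap either, and the difference of 0.21 did not pass among varying genes (0.0504). Suclg2 was near constant at 8.98. A near-constant value gives no measure of whether these steps moved together, because the deposited signal of such probe sets hardly differs between any arrays.

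Fumarate hydratase and the malate dehydrogenases had the smallest adjusted p values of the list over all genes: all 3 genes rose over all genes. Mdh1, the cytosolic malate dehydrogenase of the malate-aspartate shuttle, was 11.89, 11.80, 11.93 and 11.94 in KO and 11.51, 11.44, 11.52 and 11.49 in WT. The lowest KO array lay well above the highest WT array, and the difference was 0.40 ± 0.04 (SE, n = 4 against 4), or 1.32-fold (limma adjusted p = 0.0134 for all genes tested, 0.00406 for varying genes). Fh1, which hydrates fumarate to malate, was 10.75, 10.62, 10.72 and 10.64 in KO and 10.38, 10.25, 10.30 and 10.30 in WT. It separated the genotypes in the same way, by 0.37 ± 0.04 or 1.30-fold (adjusted p = 0.0154 and 0.00541 in those fits). Mdh2, the malate dehydrogenase of the matrix, was 11.99, 11.91, 11.96 and 11.94 in KO and 11.75, 11.68, 11.76 and 11.75 in WT. The spread within each genotype was small, and the difference of 0.22 ± 0.02 or 1.16-fold passed as well (0.0161 and 0.0131).

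With the replicate block the 3 genes passed among varying genes (adjusted p = 0.0218 for Mdh1 and Fh1 and 0.0357 for Mdh2) but not over all genes (0.0654, 0.0619 and 0.0719). Their calls among varying genes held without each array in turn, and their calls over all genes were lost without KO 3 alone (0.0513, 0.0576 and 0.0593). Within numbers 1 and 2 the differences were 0.37 for Mdh1, 0.37 for Fh1 and 0.24 for Mdh2, and within numbers 3 and 4 they were 0.43, 0.38 and 0.19.

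**Figure D2:**
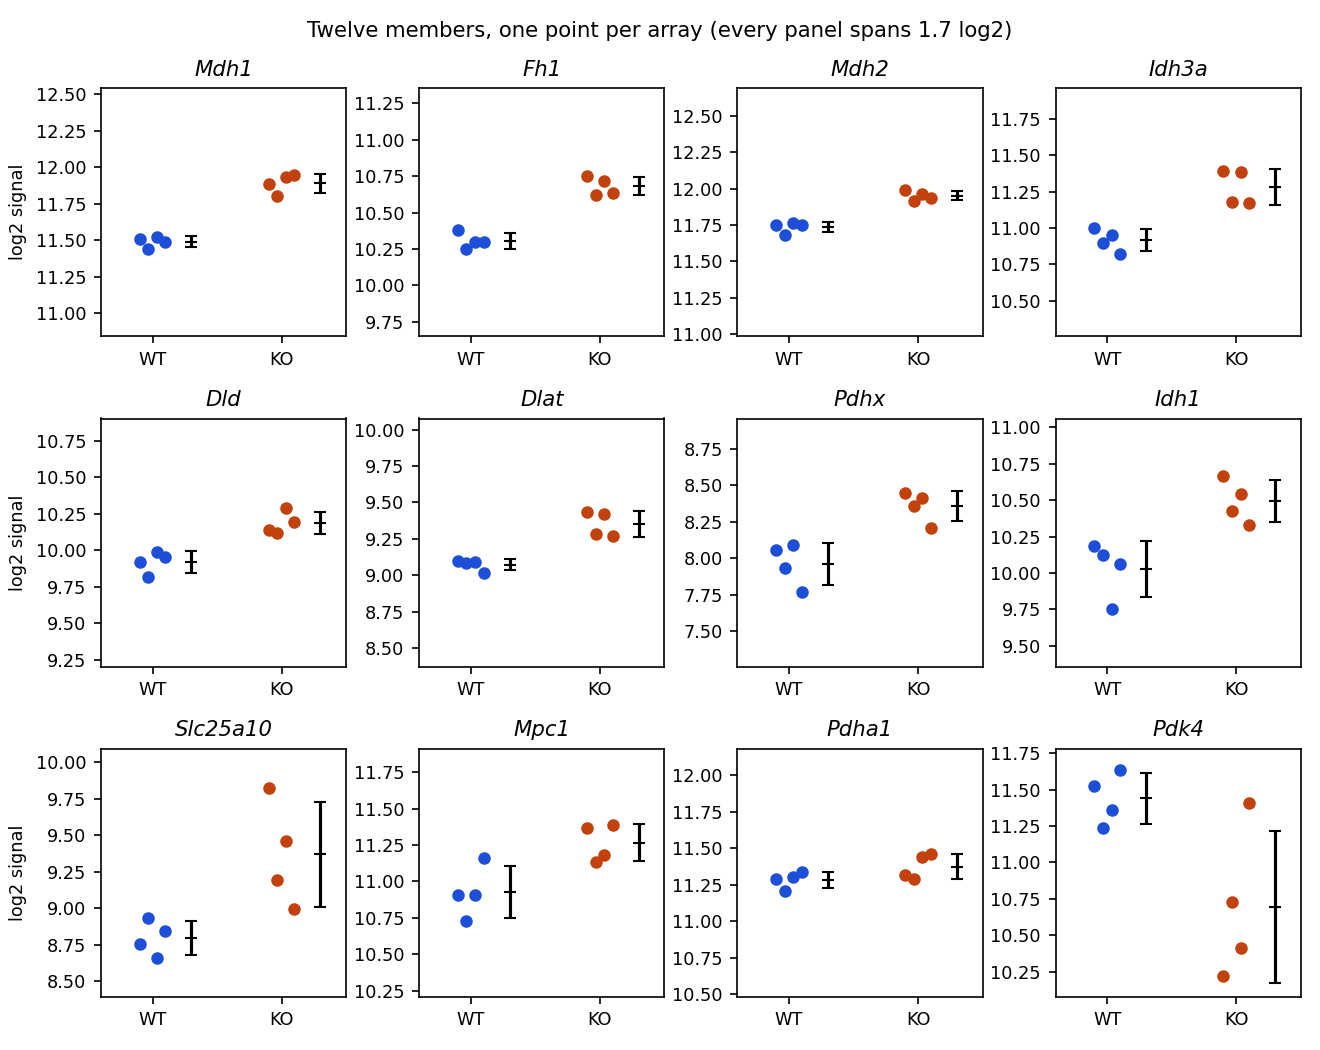
Log2 signal (vertical axis, the same span in every panel) of 12 genes in the 4 WT and 4 KO arrays; points are arrays in replicate order and the bar beside them is the mean ± SD. Mdh1, Fh1 and Mdh2 show 2 tight, separate groups, whereas the KO arrays of Slc25a10 and Pdk4 are widely spread and KO 4 of Pdk4 lies among the WT arrays.

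The sequence just upstream of the start site is shown for the 3 genes of the fumarate and malate steps, because they had the smallest adjusted p values, for Sucla2, because it holds a motif match, and for Pdk4, which had the largest difference in the other direction. Sequences are from RefSeq for mouse build GRCm38.p6, 250 bases before each start, 5′ to 3′ on the gene's strand, and capitals mark a match to the NRF1 motif.
Fh1, chr1:175625636-175625885, minus strand: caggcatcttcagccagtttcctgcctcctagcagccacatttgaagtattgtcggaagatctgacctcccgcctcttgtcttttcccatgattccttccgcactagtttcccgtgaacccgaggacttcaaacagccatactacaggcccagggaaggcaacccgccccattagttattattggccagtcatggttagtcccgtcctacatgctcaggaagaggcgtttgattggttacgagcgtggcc
Mdh1, chr11:21571935-21572184, minus strand: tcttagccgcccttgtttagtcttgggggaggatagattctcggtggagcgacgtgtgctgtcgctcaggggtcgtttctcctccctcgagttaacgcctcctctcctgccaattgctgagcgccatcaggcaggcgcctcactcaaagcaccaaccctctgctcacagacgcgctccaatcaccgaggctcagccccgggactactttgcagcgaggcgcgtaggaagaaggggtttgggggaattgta
Mdh2, chr5:135778399-135778648, plus strand: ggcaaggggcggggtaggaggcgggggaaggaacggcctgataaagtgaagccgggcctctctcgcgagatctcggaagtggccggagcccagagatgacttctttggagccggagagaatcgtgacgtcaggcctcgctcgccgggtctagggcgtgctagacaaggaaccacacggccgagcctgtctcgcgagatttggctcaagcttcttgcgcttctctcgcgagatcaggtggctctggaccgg
Sucla2, chr14:73552536-73552785, plus strand: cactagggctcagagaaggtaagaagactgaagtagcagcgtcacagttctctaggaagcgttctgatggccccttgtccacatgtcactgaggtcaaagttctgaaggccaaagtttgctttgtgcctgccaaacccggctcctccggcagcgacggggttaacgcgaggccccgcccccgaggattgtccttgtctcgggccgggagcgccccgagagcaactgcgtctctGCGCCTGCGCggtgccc
Pdk4, chr6:5496279-5496528, minus strand: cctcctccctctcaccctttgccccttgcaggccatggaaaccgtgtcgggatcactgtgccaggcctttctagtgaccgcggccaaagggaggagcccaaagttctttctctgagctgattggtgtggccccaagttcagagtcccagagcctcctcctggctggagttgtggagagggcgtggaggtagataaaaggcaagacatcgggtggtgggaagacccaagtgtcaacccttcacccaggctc

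Motifs were counted on both strands in windows of 300 bases (250 before the start to 50 after it), which RefSeq gave for 29 of the 31 genes, 38 windows in all. NRF1, a factor known for driving nuclear genes of mitochondrial proteins, binds sites written here as GCGCA, any base, then GCGC. This motif was in 2 of the 38 windows (5.26%), beside 4.60% of all 32851 windows. One was the match shown for Sucla2, from base -17 to base -8, and the other was GCGCAGGCGC in Dld, from base 40 to base 49 after the start. The motif TNAAGGTCA of the oestrogen-related receptors, which also act on such genes, was in 0 of the 38 windows, beside 1.28% of all windows. These shares were near those of all promoters, the 2 matches lie in different genes and so do not overlap, and a window without these letters says nothing of whether a factor binds. The windows of the 38 starts had a median GC content of 61.2% and a median of 22 CpG dinucleotides, beside 52.7% and 7 over all windows.

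The pyruvate dehydrogenase core was represented by 4 genes, 3 of which passed among varying genes with and without the block. Dlat, the acetyltransferase (E2) component, was 9.43, 9.28, 9.42 and 9.27 in KO and 9.10, 9.09, 9.09 and 9.02 in WT. The groups did not overlap, and the difference of 0.28 ± 0.05 (SE, 1.21-fold) was the only one of the 4 to pass over all genes (adjusted p = 0.0373, and 0.103 with the block; 0.0140 among varying genes, and 0.0319 there with it). Its call over all genes was lost without any one array (0.0566 to 0.102) and when arrays 1 and 2 were blocked against arrays 3 and 4 (0.0593. Pdhx, which anchors Dld to the complex, was 8.45, 8.36, 8.41 and 8.21 in KO and 8.06, 7.93, 8.09 and 7.77 in WT. All KO arrays lay above all WT arrays by a difference of 0.40 ± 0.09 (1.32-fold), which passed among varying genes (0.0172, and 0.0218 with the block) but not over all genes (0.0625).

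The E1 component, which decarboxylates pyruvate, is a tetramer of alpha and beta subunits. The beta subunit gene Pdhb was 10.95, 10.76, 10.87 and 10.77 in KO and 10.63, 10.54, 10.68 and 10.58 in WT. The groups did not overlap, and the difference of 0.23 (1.17-fold) passed among varying genes (adjusted p = 0.0258, and 0.0385 with the block) but not over all genes (0.0633). The X-linked alpha subunit gene Pdha1, whose product carries the phosphorylation sites, was 11.31, 11.29, 11.44 and 11.46 in KO and 11.29, 11.21, 11.30 and 11.34 in WT. KO and WT arrays overlapped, and the difference of 0.09 (interval -0.04 to 0.22) did not pass (0.251 among varying genes). Whether Pdha1 differed less than the other 3 genes was not tested.

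Among the kinases and the phosphatase 0 of 5 genes passed in either direction over all genes or among varying genes. Pdk4, the isoform induced by fasting and fatty acids, was 10.22, 10.73, 10.41 and 11.41 in KO and 11.52, 11.24, 11.36 and 11.64 in WT. It was lower in KO in all 4 replicate numbers, but KO 4 lay above WT 2 and WT 3, so the groups overlapped. The difference of -0.75 ± 0.27 (SE), the largest in size of the list, did not pass over all genes (adjusted p = 0.168) and did not pass among varying genes (0.0520, and 0.0521 with the block). Without KO 4 the difference was -0.99 and passed among varying genes (0.0133), while without each of the other arrays it ran from -0.81 to -0.59 and did not pass. Pdk1 and Pdk2 differed by 0.12 and 0.05, with intervals of -0.12 to 0.37 and -0.07 to 0.17, and Pdk3 and the phosphatase gene Pdp1 were near constant at 6.93 and 7.84.

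The carriers and transaminases were 6 measured genes, of which 4 carriers rose among varying genes and 0 passed over all genes. Mpc1, a subunit of the mitochondrial pyruvate carrier, was 11.36, 11.13, 11.18 and 11.39 in KO and 10.91, 10.73, 10.91 and 11.16 in WT. The groups overlapped only at KO 2 and WT 4, and the difference of 0.34 (1.26-fold) passed among varying genes (adjusted p = 0.0424, and 0.0318 with the block; 0.131 over all genes). Slc25a1, the citrate carrier, was 9.27, 9.02, 9.40 and 9.18 in KO and 8.95, 8.65, 8.87 and 8.99 in WT. These groups did not overlap, and the difference of 0.35 (1.28-fold) passed likewise (0.0376 and 0.0342; 0.120 over all genes).

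The dicarboxylate carrier Slc25a10, which exchanges malate or succinate for phosphate, had the largest increase of the list. It was 9.83, 9.20, 9.46 and 9.00 in KO and 8.75, 8.93, 8.66 and 8.85 in WT, so that KO 1 stood well above the others and KO 4 just above WT 2. The difference of 0.57 ± 0.18 (SE, 1.49-fold) passed among varying genes (adjusted p = 0.0397) but not there with the block (0.0737) or over all genes (0.136). Without any one array except KO 4 it no longer passed among varying genes (0.0509 to 0.0943), and without KO 1 the difference was 0.42. The 2-oxoglutarate and malate carrier Slc25a11 was 9.25, 9.26, 9.45 and 9.18 in KO and 9.10, 8.96, 8.84 and 9.04 in WT. Its groups did not overlap, and the difference of 0.30 had the same pattern of calls (0.0283 among varying genes, 0.0773 with the block, 0.0886 over all genes). The 2 aspartate transaminases of the malate-aspartate shuttle were not called. Mitochondrial Got2 was near constant at 8.98 to 8.99, which gives no measure of its change. Cytosolic Got1 was 7.14, 7.70, 7.23 and 7.41 in KO and 7.64, 7.55, 7.29 and 7.30 in WT. Whether the changes of Got1 and Mdh1 differed from each other was not tested. The groups of Got1 overlapped, with a difference of -0.07 (interval -0.39 to 0.24) that turned to 0.00404 when KO 1 was left out.

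**Figure D3:**
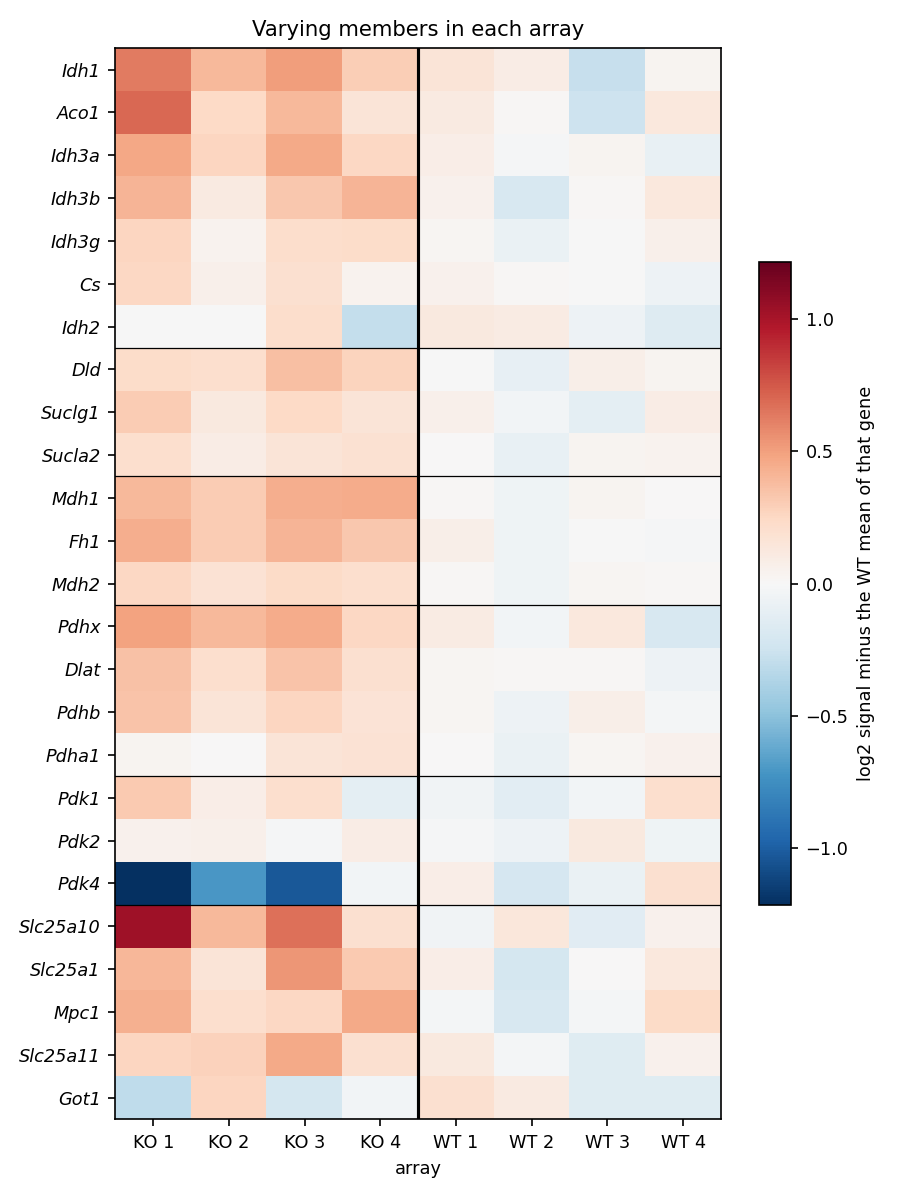
Log2 signal of the 25 varying genes (rows, grouped by role) in each array (columns), shown as the difference from that gene's WT mean. The KO columns are red in most rows, most deeply in KO 1 and KO 3, and the Pdk4 row is blue in KO 1, KO 2 and KO 3 and near white in KO 4.

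Some KO mice stood higher than others across the varying genes. KO 1 had the highest KO signal in 15 of the 25 genes, where it did so in 30.4% of all varying genes. In 8 of them (Cs, Aco1, Idh1, Idh3a, Dlat, Pdhx, Pdk1 and Slc25a10) the KO arrays ran from KO 1 through KO 3 and KO 2 to KO 4, highest to lowest, an order seen in 7.46% of varying genes. Pdk4 ran in the reverse order, as 5.84% of varying genes did. This order was picked after the values were seen, and these shares describe 4 mice. In 20 of the 25 genes KO exceeded WT at each of the 4 replicate numbers, beside 27.8% of varying genes, and the median difference over the 31 genes was 0.22 within numbers 1 and 2 and 0.19 within numbers 3 and 4.

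Where a gene had further probe sets that varied, they differed in the same direction. In all, 40 of the 68 probe sets varied, 37 of them higher in KO and 3 lower (those of Idh2, Got1 and Pdk4). The share of all varying probe sets that were higher in KO was not counted. The 11 genes with more than 1 varying probe set showed 1 sign each. Citrate synthase, not called on its brightest probe set, differed by 0.17 and 0.24 on its 2 other varying probe sets, and both passed among varying probe sets (limma adjusted p = 0.0480 and 0.0188). Likewise the dimmer varying probe sets of Aco1 (0.30) and Idh3g (0.20) passed there (0.0472 and 0.0284). Dlat differed by 0.28, 0.32 and 0.36 on its 3 probe sets and Mdh1 by 0.40, 0.25 and 0.30 on its 3 varying ones, and each of these passed. Its other probe sets were near constant. Pdha1 did not pass on either of its probe sets (0.09 and 0.07). The probe sets used for Idh1 and Idh3b carry the suffix _s_at and those of Aco1 and Dlat _x_at, which mark probes that can match other transcripts as well, and the part of such matches in their values was not tested.

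The 28 near-constant probe sets had differences of at most 0.01 and levels of 6.00 to 9.81. Some belong to genes whose brightest probe set varied, as for Pdhb and Idh2, so that a near-constant value is a property of the probe set's deposited signal and not a statement about the gene.

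**Figure D4:**
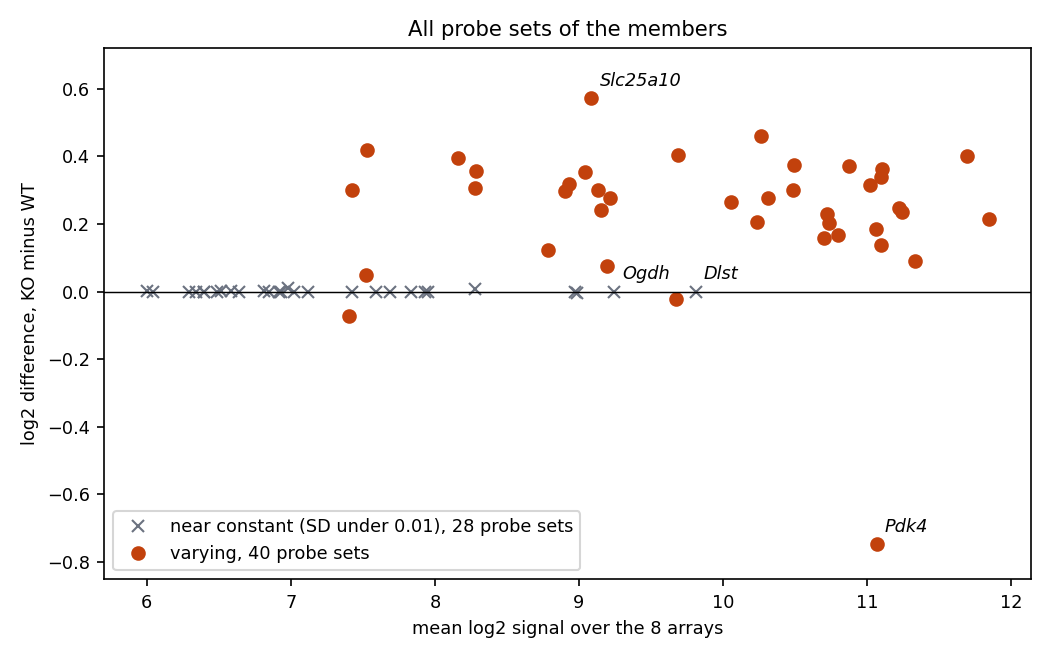
Mean log2 signal over the 8 arrays (horizontal axis) and log2 difference, KO minus WT (vertical axis), of all 68 probe sets of the measured genes. The 28 near-constant probe sets (crosses) lie on 0, and of the 40 varying ones (circles) 37 lie above 0, with Slc25a10 highest and Pdk4 lowest.

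Neighbouring enzymes of the same pathways, which are not among the 31, were taken from a list of 32 symbols, 28 of them measured and 19 varying. Over all genes 5 of the 28 rose and 0 fell, against 2.39% and 1.64% of all genes. Among varying genes 8 of the 19 rose and 0 fell, against 14.9% and 12.2% of varying genes. With the block 5 of the 19 rose there and 0 fell, against 10.3% and 9.24%. The 4 subunit genes of succinate dehydrogenase, the step between succinyl-CoA ligase and fumarate hydratase, were higher in KO without overlap, by 0.20 (Sdha), 0.17 (Sdhb), 0.19 (Sdhc) and 0.21 (Sdhd). Of these Sdhc passed over all genes (adjusted p = 0.0373) and Sdha, Sdhc and Sdhd among varying genes (0.0284, 0.0236 and 0.0236), and with the block Sdhd alone passed there (0.0396). The malic enzymes, which turn malate into pyruvate, rose over all genes: cytosolic Me1 by 0.47 ± 0.06 (SE, adjusted p = 0.0194) and mitochondrial Me2 by 0.33 ± 0.06 (0.0454), while Me3 was near constant.

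Gpd1, the cytosolic glycerol-3-phosphate dehydrogenase, was 10.48, 10.47, 10.62 and 10.33 in KO and 10.04, 9.87, 9.78 and 9.70 in WT. The groups did not overlap, and it rose by 0.63 ± 0.09 (SE, 1.55-fold, adjusted p = 0.0294 over all genes and 0.0227 among varying genes with the block). Its mitochondrial partner in the glycerol phosphate shuttle, Gpd2, differed by 0.11 and did not pass. Lipt2, which starts the attachment of lipoic acid to the E2 components, rose by 0.23 (0.0337 over all genes), and the acetyl-CoA synthetase gene Acss2 differed by 0.22 and passed only among varying genes without the block (0.0410). ATP citrate lyase (Acly), lactate dehydrogenases Ldha and Ldhb, glutamate dehydrogenase Glud1, and Pck1 and Pck2 differed by 0.01, -0.01, -0.02, -0.17, 0.25 and -0.26 without passing. The aspartate and glutamate carrier gene Slc25a12 differed by -0.16 and did not pass either (limma adjusted p = 0.294 among varying genes, and 0.111 with the block).

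Markers of other cell types were set beside these genes. Skeletal muscle, which is rich in these enzymes, had high markers in some samples: the mean of 15 muscle genes was 8.89 and 9.59 in KO 1 and KO 2 and 9.23 and 8.99 in WT 1 and WT 2, but 6.43 and 7.19 in KO 3 and KO 4 and 6.47 and 7.02 in WT 3 and WT 4. It thus parted the arrays by replicate number, with a genotype difference of 0.10, and 0 of its genes were called. With numbers 1 and 2 against numbers 3 and 4 as a block, 15 of the 25 varying cycle and shuttle genes passed, all higher, against 15.0% of varying genes that rose in that fit. This block takes no account of muscle signal that differs between arrays on the same side of it. The part of muscle in the results on the cycle and shuttle genes was not tested.

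The mature adipocyte markers had means of 12.38 to 12.43 in KO and 12.38 to 12.42 in WT, a difference of 0.02 between genotypes. Of the 8 measured, 2 (Adipoq, 0.25, and Retn, 0.26) rose over all genes, against 2.39% of all genes. The other varying ones were not called: Cidec (0.15) and Pnpla2 (0.004) were higher in KO, and Lep (-0.38), Pparg (-0.08) and Lipe (-0.05) were lower. Of the 5 endothelial markers 4 fell among varying genes, against 12.2% of varying genes, with list means of 9.23 to 9.48 in KO and 9.51 to 9.74 in WT. Kdr (-0.16) was not called, and Esam alone fell over all genes (limma adjusted p = 0.0381). The 7 macrophage markers had means of 10.27 to 10.47 in KO and 9.21 to 10.72 in WT, with 0 called. The 6 fibroblast markers had means of 10.05 to 10.29 in KO and 9.54 to 10.36 in WT, with 0 called. The 7 markers of brown or beige fat had means of 7.23 to 7.40 in KO and 7.12 to 7.33 in WT. Of these Cox8b was called among varying genes (0.54). The other varying ones were not called: Cox7a1 (0.27) and Cidea (0.11) were higher in KO, and Kcnk3 (-0.25) and Ppargc1a (-0.10) were lower. Ucp1, the defining one, was near constant at 6.17, at percentile 18.5 of all probe sets. The lymphocyte and erythrocyte lists each had 1 varying gene and 0 called, and the 4 mammary epithelium markers were all near constant. The part of the endothelial differences, and of those of single adipocyte markers, in the results on the cycle and shuttle genes was not tested.

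**Figure D5:**
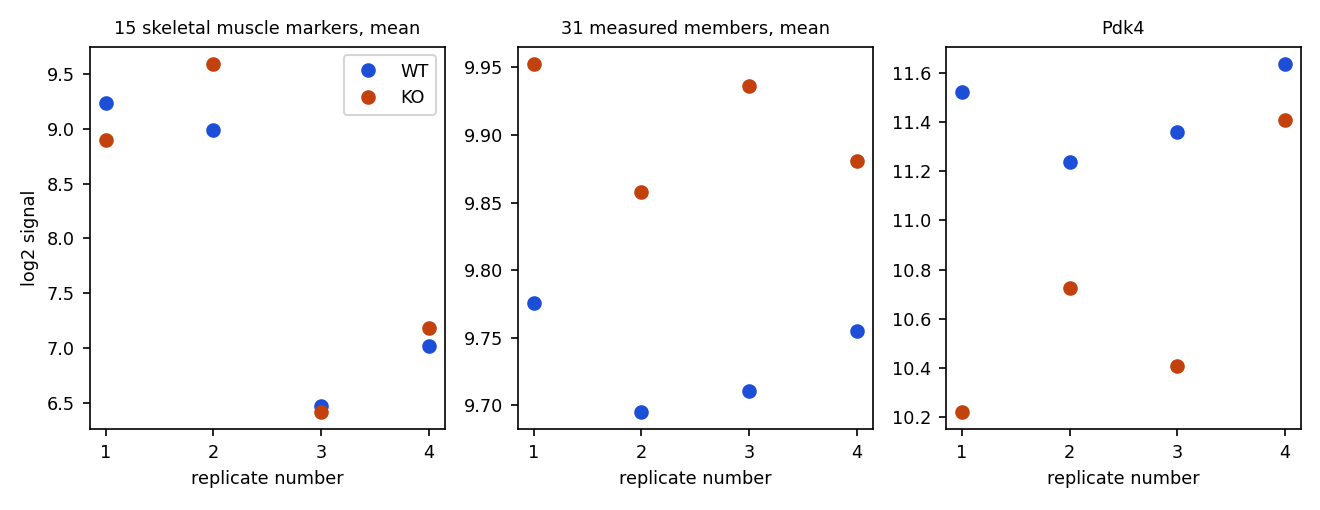
Mean log2 signal of 15 skeletal muscle markers (left), mean of the 31 measured cycle and shuttle genes (middle) and log2 signal of Pdk4 (right) by replicate number, with KO and WT arrays as separate colours. Muscle markers are high in numbers 1 and 2 of both genotypes, while the mean of the 31 genes is higher in KO, and Pdk4 lower in KO, at each of the 4 numbers.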

How the data were processed

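The authors deposited a table of log2 signals for 45101 probe sets on 8 arrays, 1 a mouse. Per the labels' protocols, biotinylated RNA was made from 100 ng of each sample for a 3' array; the submitters' processing notes name R 2.14.0. How background, normalisation and summarisation were handled is not given in the sources used here, and the log2 scale was read from the values. Samples were grouped by their titles.

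The genes listed, the tests and the alternatives were chosen with earlier results of these data known. Probe sets were named through the platform annotation, and all 31 measured genes had their identifier in the GRCm38.p6 gene table. Genotypes were compared by limma 3.58.1 in R 4.3.3 (lmFit then eBayes, two-sided) over all 18193 genes, with Benjamini-Hochberg adjustment and a threshold of 0.05, and again over the 5173 genes with an SD of at least 0.01. That SD includes the genotype difference. The number of arrays limits the precision, and intervals are 95% intervals from limma.

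The labels number the mice 1 to 4 in each genotype without saying what a number shares. Deviations of same-numbered arrays from their genotype means correlated across genes at 0.315, 0.486, 0.189 and 0.244. All were over 0.1, so blocked values are given too. Some arrays of different numbers also correlated: KO 3 with WT 4 at 0.364, KO 4 with WT 3 at 0.266, KO 2 with WT 1 at 0.220 and KO 1 with WT 2 at 0.107. Correlations between numbers 1 or 2 and numbers 3 or 4 were negative, from -0.421 to -0.202. Pairing by number comes from the data alone and cannot be told apart from a split of numbers 1 and 2 against 3 and 4. Alternatives were dim genes, probe set choice, normalisation, the variance model, blocks and leaving out each array. Values in every array are given for genes that passed over all genes or among varying genes with the block, whose genotypes did not overlap, or that had the most negative difference of their role. Genes outside the list were named where they passed in one of these fits; those named that did not pass, and the further probe sets, were picked after their values were seen.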

Additional observations from a re-analysis of the deposited data

Results flagged for a closer look

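The arrays of each genotype were checked for the 25 varying cycle and shuttle genes and their mean. The 8 neighbouring genes that rose among varying genes, and the means of marker lists with a varying gene, were checked too. Of these 84 groups of 4 arrays, 4 held an array far from the other 3, and chance gives about 1 in 20, or 4.2. Dlat was low in WT 4, at 9.02 beside 9.09 to 9.10 in the other WT arrays. Acss2 was low in KO 4, at 8.64 beside 8.79 to 8.81. The lymphocyte marker mean was high in KO 4, at 6.66 beside 6.59, and in WT 1, at 6.63 beside 6.47 to 6.50.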

How the results depend on the processing

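Of the 18193 genes 733 passed, 0 with the replicate block, 1402 among varying genes only, and 10 to 253 without 1 array. Of the 31 cycle and shuttle genes 6 rose over all genes, 0 with the replicate block, 15 among varying genes, 12 among varying genes with the replicate block, 3 without probe sets of suffix _s_at, _x_at or _a_at (which leaves fewer genes) and 0 to 3 without 1 array. Among varying genes 15 rose, and 6 to 13 did without 1 array. The count of those that fell there was 0 as reported, 1 with a variance trend and robust estimation (Pdk4) and 0 to 1 without 1 array (Pdk4, without KO 4). The median difference of 0.21 ran from 0.163 to 0.225 under the settings other than leaving out an array, and from 0.17 to 0.23 without 1 array. Idh2 turned sign without KO 4 (0.0691), WT 1 (0.02) or WT 2 (0.0107), with a range of -0.0997 to 0.0691, and Got1 without KO 1 (0.00404), with a range of -0.184 to 0.00404. Quantile normalisation ended the calls among varying genes of Idh3b (adjusted p = 0.0771), Mpc1 (0.0853), Slc25a1 (0.0805), Slc25a10 (0.0874) and Acss2 (0.0607), and the cause was not tested for any of these changes. Over all genes, blocking arrays 1 and 2 against arrays 3 and 4 ended the calls of Idh3a (0.0714) and Dlat (0.0593), and Idh3a also lost its call when probe sets were averaged (0.0834) and without suffixed probe sets (0.181). Among varying genes, Idh3a lost its call without suffixed probe sets (0.0593), Sucla2 when probe sets were averaged (0.0963) and Acss2 with arrays 1 and 2 blocked against 3 and 4 (0.0525). Pdhb (0.0484) and Pdhx (0.0476) passed over all genes when dim genes were left out. Among varying genes Cs, Aco1, Idh3g and Suclg1 passed under 1 or more of the settings that changed the probe sets, the dim genes, the array medians or the variance model (0.0174 to 0.0495). Beyond the calls given as lost with the replicate block in the report, the block changed no other call of a named cycle, shuttle or neighbouring gene. For single cell type markers the block was not examined among varying genes. Signal over background was not analysed here.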
